A study of Mus musculus with 4 samples.

Results

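The histone deacetylase genes Hdac1 to Hdac10 were examined in mRNA sequencing of the medial prefrontal cortex (mPFC) from mice with and without chronic unpredictable mild stress (CUMS). The members were chosen by gene symbol in the authors' table, and 10 of 10 symbols were found among its 17778 genes. The mice were males of the strain labelled C57BL/6 (C57BL/6J in the methods of the study), juvenile when the experiment began. The CUMS group (2 libraries) had lived through several weeks of changing mild stressors and social isolation and had then shown depression-like behavior in sucrose preference, Y-maze and forced swimming tests. Stressed mice that stayed resilient were not used. The control group (2 libraries) went through the same tests without the stressors, and no transgene is named for either group. The only drug named is isoflurane, used to anesthetize both groups before tissue was taken. Tissue from both hemispheres was taken a day after the last test, and RNA was isolated from each mouse separately, but it is not stated whether a library held RNA of 1 mouse or a pool.

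The deposited value was the mean RPKM of a group, that is, reads scaled to the length of the gene and to the size of the library. There is 1 mean per gene and group and none for a single library, so no difference could be compared with the spread between mice and no test of the groups was possible. What can be given is counting error. The smallest steps in the values of short genes put the depth at about 7473842 fragments in each control library and 7485030 in each CUMS library, and from these the 95% intervals below were computed. They cover counting error only. Excitatory neuron markers of the neocortex were abundant in the labelled tissue (Slc17a7 at 635 RPKM in control), and 5 of 5 of them were higher in CUMS (log2 ratios 0.30 to 0.39). In contrast, 5 of 5 oligodendrocyte markers were lower in CUMS (-0.68 to -0.40), their summed level being 1614 RPKM in control and 1081 RPKM in CUMS. Also, 5 of 5 measured striatal markers were lower (-0.45 to -0.17). Inhibitory neuron markers went in both directions, with Gad2 (-0.88), Slc32a1 (-0.78) and Gad1 (-0.60) lower, Vip higher (0.51) and Sst and Pvalb within counting error. Red blood cell markers had a median of 0.97, with 5 of 5 past 1.5-fold higher and an interval above 0 in 4 of 5. The exception, Hbb-b2, rested on about 1 fragment in control and 5 in CUMS. The interval was above 0 in 1 and below 0 in 1 of 5 astrocyte markers (Slc1a3 and Gfap), above 0 in 1 of 5 microglia markers (P2ry12) and below 0 in 1 of 2 markers of oligodendrocyte precursors (Cspg4). Of the 14257 genes that reached 0.5 RPKM in either group, the interval was above 0 in 12.6% and below 0 in 16.9%. Of these genes 7.2% were past 1.5-fold in either direction, and 53.2% had a lower mean in CUMS. The part of this shift in cell type markers in the values of the deacetylase genes was not tested, and in such bulk tissue fewer cells of a type and less mRNA per cell cannot be told apart.

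Histone deacetylases take acetyl groups off the lysines of histones and of other proteins. Removal from histones lets chromatin close and usually quiets nearby genes, against the histone acetyltransferases that add the groups. The members fall into classes by sequence. Class I enzymes (Hdac1, Hdac2, Hdac3 and Hdac8) are mainly nuclear, and most of them work inside large corepressor complexes. Class IIa enzymes (Hdac4, Hdac5, Hdac7 and Hdac9) bind MEF2 transcription factors and move between nucleus and cytoplasm when kinases phosphorylate them and 14-3-3 proteins hold them. Class IIb has Hdac6, which acts on tubulin in the cytoplasm, and Hdac10, which prefers polyamines. These enzymes are studied in neurons for their parts in memory, reward and the response to stress.

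The classes differ at the catalytic site, and the coding sequence there is shown because the results are ordered by class. Each stretch below is 30 bases of the coding strand, 5′ to 3′, read from GENCODE M21 transcripts on GRCm38 (mm10, the build of the study). The capitals mark the codon for the catalytic residue, found by translating each transcript and searching for the glycines that precede it. In the class I and class IIb members shown the codon is TAC or TAT for tyrosine, and the stretch of Hdac3, the remaining class I member, is not shown here.
Hdac1: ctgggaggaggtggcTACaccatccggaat
Hdac2: ctcggtggaggaggcTACacaatccggaat
Hdac8: ttaggaggaggaggcTATaaccttgccaac
Hdac6, first deacetylase domain: tccctggagggtggcTATaacctccgtgcc
Hdac6, second deacetylase domain: attctagagggtggaTACaatttggcatct
Hdac10: gtgttggagggtggcTACcacttggagtcc

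In class IIa it is CAT for histidine in each member, an exchange known to leave vertebrate class IIa enzymes with little activity on acetyl-lysine.
Hdac4: gcccttgagggaggcCATgacctgacagcc
Hdac5: gccctggagggaggcCATgacttgaccgcc
Hdac7: gccttagagggtggaCATgacctcacggcc
Hdac9: gctctggaaggaggaCATgatctgacagct

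The stretches lie in coding exons at chr4:129518889-129518918 (Hdac1, minus strand, exon 9), chr10:36997042-36997071 (Hdac2, plus strand, exon 9), chr1:91945948-91945977 (Hdac4, minus strand, exon 24), chr11:102196587-102196616 (Hdac5, minus strand, exon 26), chr15:97796146-97796175 (Hdac7, minus strand, exon 22) and chr12:34107266-34107295 (Hdac9, minus strand, exon 22). The stretches of Hdac6, Hdac8 and Hdac10 each cross an intron, so that their ends lie further apart in the genome, at chrX:7938472-7939451 and chrX:7932217-7934180 (Hdac6, minus strand), chrX:102402660-102405546 (Hdac8, minus strand) and chr15:89126061-89126220 (Hdac10, minus strand). Exon numbers are those of the transcript with the longest coding sequence.

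All of the 10 genes were expressed in control mPFC at 5 RPKM or more, and none was past the 1.5-fold threshold of the study in either direction. The class IIa gene Hdac5 was the most abundant member, followed by Hdac3. In CUMS, Hdac8, Hdac4, Hdac6 and Hdac5 were lower beyond counting error and Hdac2 was higher beyond counting error, with differences of 10.1% to 26.8%. At 0.5 times the estimated depth only Hdac5 and Hdac6 kept an interval away from equal expression, that is 2 of 10 members in place of 5. Hdac1, Hdac3, Hdac7, Hdac9 and Hdac10 had counting intervals that included equal expression. Past 1.5-fold were 0 of 10 members, whereas 7.2% were past it among the 14257 genes that reached 0.5 RPKM in either group. The members' range of levels was set by their lowest and highest control means, and 7638 genes had a geometric mean of both groups within it. Of these, 1.14% were past 1.5-fold. Since Hdac8 set the lower limit and was lower in CUMS, its own geometric mean fell outside this range. The counting interval lay below equal expression in 4 of 10 members, against 16.9% of the 14257 genes, and above it in 1 of 10 members, against 12.6%. Among genes in the members' range of levels the shares were 18.7% and 14.1%. The members' median log2 ratio was 0.03, with 4 lower and 6 higher means, and the median of the 14257 genes was -0.02. The median absolute log2 ratio was 0.15 in the members, 0.13 in those genes and 0.10 in the 7638 genes in the members' range of levels.

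**Figure D1:**
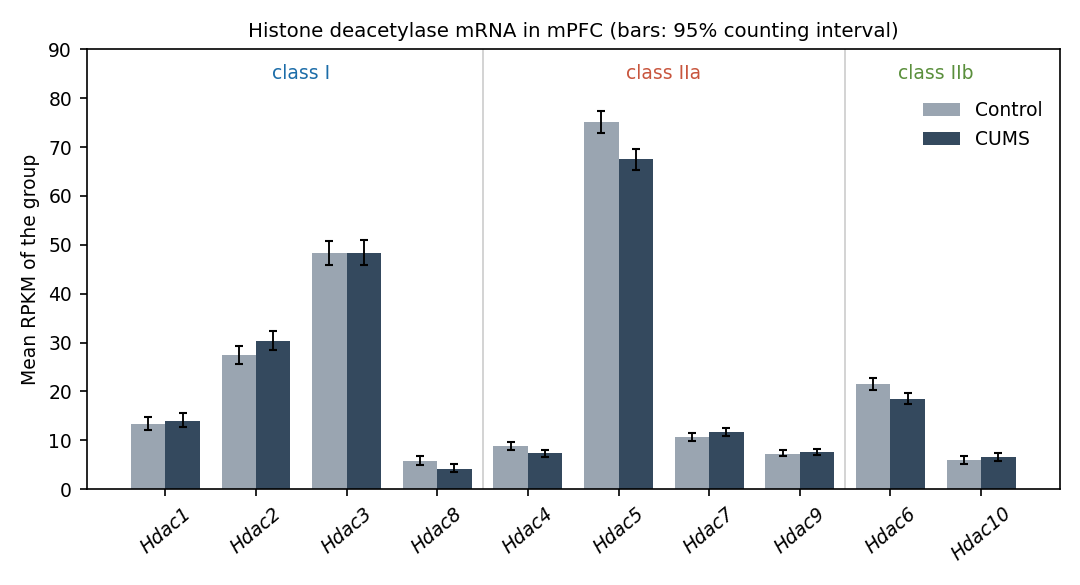
Mean RPKM of each histone deacetylase gene in control (light bars) and CUMS (dark bars), grouped by class, with 95% counting intervals as error bars. Hdac5 stands highest in both groups at 75.04 and 67.485 RPKM, and Hdac8 lowest in both at 5.775 and 4.225 RPKM.

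In control the order of levels was Hdac5, Hdac3, Hdac2, Hdac6, Hdac1, Hdac7, Hdac4, Hdac9, Hdac10 and Hdac8. Neighbors in this order were apart beyond counting error except Hdac10 and Hdac8, whose levels had a ratio of 1.02 (0.82 to 1.26). In CUMS the order differed only in that Hdac9 stood above Hdac4. There the neighbors Hdac9 and Hdac4 (ratio 1.04, 0.92 to 1.18) and the neighbors Hdac4 and Hdac10 (ratio 1.12, 0.96 to 1.32) were within counting error, while Hdac10 was 1.55 times Hdac8 (1.23 to 1.96). The order depends on the gene lengths used by the authors. Their length for Hdac4 was 3960 bases, whereas the GENCODE transcript with its longest coding sequence has 8100 bases, and for Hdac9 the numbers were 5343 and 3204 bases. A ratio between groups within 1 gene does not depend on this length.

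Summed over the 10 members, the level had a mean of 224 RPKM in control and 216 RPKM in CUMS, a log2 ratio of -0.05. Hdac5 alone held 33.5% of this sum in control and 31.2% in CUMS. Class I held 42.3% in control and 44.9% in CUMS, class IIa 45.4% and 43.5%, and class IIb 12.2% and 11.6%. The class shares thus moved by under 3 percentage points.

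Among class I genes, Hdac1 and Hdac2 encode the closely related enzymes of the Sin3, NuRD and CoREST complexes. Hdac2 (gene 15182, chromosome 10, 36974297 to 37001889), studied as a brake on synaptic plasticity and memory, had a mean of 27.42 RPKM in control and 30.415 RPKM in CUMS. Its log2 ratio was 0.15 (0.01 to 0.29), that is 10.9% higher, on about 821 and 912 fragments. It was the single member with an interval above 0, and the lower bound is close to 0. Hdac1 (gene 433759, chromosome 4, 129516104 to 129542646) had a mean of 13.37 RPKM in control and 14.05 RPKM in CUMS, with a log2 ratio of 0.07 (-0.13 to 0.28). Hdac1 minus Hdac2 gave a difference of log2 ratios of -0.08 with an interval of -0.48 to 0.32, widened for 45 comparisons of members. Neither a like nor an unlike response of this pair can be read from the data.

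The value of Hdac1 carries a limit of its own. Of the 100-base windows in its transcript, 46.8% (907 of 1939) occur letter for letter in transcripts of other genes, nearly all of them in Gm10093, a near-identical copy. Since the authors counted uniquely aligned reads, reads from this stretch could have been dropped, and the listed level of Hdac1 may be too low. Such shared windows made up 0.462% of the Hdac4 transcript and 0% in each of the other 8 members. The Hdac4 windows are shared with Gm26720, which runs on the opposite strand across 22.4% of the exon bases of Hdac4, and the use of strand in the counting is not stated.

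Hdac3 and Hdac8 are the other class I genes. Hdac3 (gene 15183, chromosome 18, 37936971 to 37955015), which works in another corepressor complex, had a mean of 48.29 RPKM in control and 48.42 RPKM in CUMS. With a log2 ratio of 0.00 (-0.10 to 0.11) it had the smallest difference of all members, and a difference of more than 0.11 in either direction lay outside its counting interval. Its direction turned to lower, at -0.0037, when CUMS was rescaled to an equal sum. Hdac8 (gene 70315, chromosome X, 102284638 to 102505381), which acts outside these complexes and deacetylates the cohesin ring, had a mean of 5.775 RPKM in control and 4.225 RPKM in CUMS. This was the largest difference among members, 26.8% lower, with a log2 ratio of -0.45 (-0.82 to -0.09). It was also the member with the fewest fragments, about 149 in control and 109 in CUMS. A log2 ratio at least as far from 0 was seen in 10.9% of the 14257 genes, and in 7.78% of the 4278 genes whose mean lay within a factor of 2 of that of Hdac8. It was past 1.2-fold as 1 of 10 members, against 24.9% of the 14257 genes. The latter share includes genes of lower level than the members, and none was computed for genes in the members' range of levels.

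**Figure D2:**
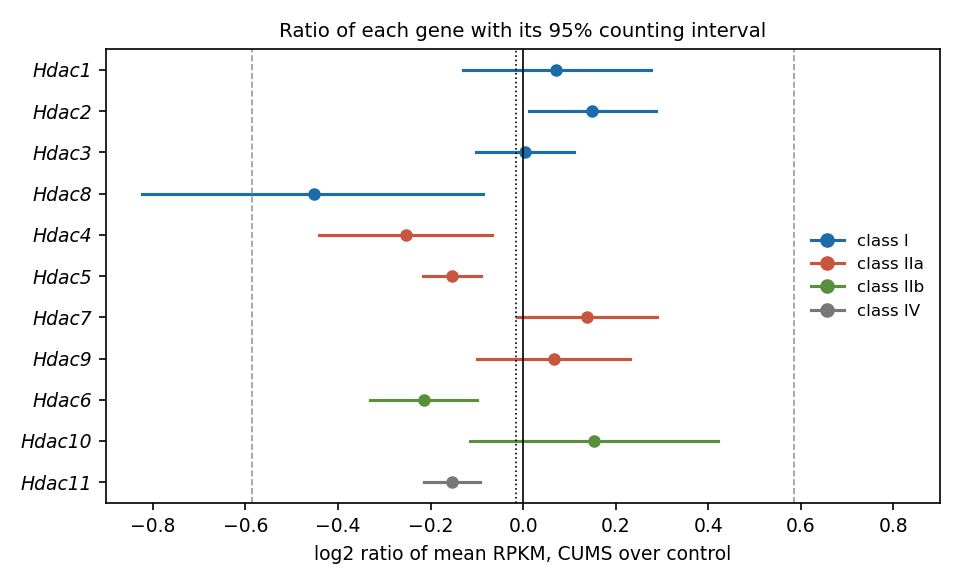
Log2 ratio of CUMS over control for each histone deacetylase gene (points) with its 95% counting interval (lines), colored by class. Dashed lines mark 1.5-fold and the dotted line the median of all genes that reached 0.5 RPKM. All points lie between the dashed lines, with Hdac8 farthest from 0 at -0.45 and with the widest interval.

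Among class IIa genes, Hdac5 and Hdac4 were lower in CUMS beyond counting error, and Hdac7 and Hdac9 were not. Hdac5 (gene 15184, chromosome 11, 102195747 to 102230172), a deacetylase studied in stress and reward circuits of rodents, had a mean of 75.04 RPKM in control and 67.485 RPKM in CUMS. Its log2 ratio was -0.15 (-0.22 to -0.09), 10.1% lower, on about 4278 and 3853 fragments, the narrowest interval of the members. Hdac4 (gene 208727, chromosome 1, 91928779 to 92195702), a close relative of Hdac5, had a mean of 8.775 RPKM in control and 7.36 RPKM in CUMS, with a log2 ratio of -0.25 (-0.44 to -0.07), or 16.1% lower. The other class IIa genes had higher means in CUMS, and their intervals included equal expression. Hdac7 (gene 56233, chromosome 15, 97792661 to 97844502), known best from endothelial cells and thymocytes, had a mean of 10.63 RPKM in control and 11.705 RPKM in CUMS (log2 ratio 0.14, -0.01 to 0.29). For comparison, 2 of 5 endothelial markers had an interval below 0 (Cldn5 and Pecam1) and 0 of 5 had one above 0. Among the 14257 genes these shares were 16.9% and 12.6%. Summed, the 5 markers went from 60.5 RPKM (control) to 45.8 RPKM (CUMS), but this sum mostly followed Cldn5, which went from 38.135 to 24.96 RPKM. The log2 ratios of Kdr (-0.12), Flt1 (0.01) and Tek (0.01) had intervals that included equal expression. The part of endothelial cells in the value of Hdac7 was not tested. Hdac9 (gene 79221, chromosome 12, 34047580 to 34917095), which also makes a short form without the catalytic domain, had a mean of 7.3 RPKM in control and 7.64 RPKM in CUMS (0.07, -0.10 to 0.23). The table holds 1 value per gene, so the forms of Hdac9 could not be separated.

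In class IIb, Hdac6 (gene 15185, chromosome X, 7930116 to 7948047), the tubulin deacetylase, had a mean of 21.49 RPKM in control and 18.52 RPKM in CUMS. Its log2 ratio was -0.21 (-0.33 to -0.10), 13.8% lower, on about 1314 and 1134 fragments. Hdac10 (gene 170787, chromosome 15, 89123303 to 89128700) had a mean of 5.895 RPKM in control and 6.56 RPKM in CUMS, with a log2 ratio of 0.15 (-0.12 to 0.42). The point value of Hdac10 equals that of Hdac2 to 2 decimals, but it rests on about 221 and 246 fragments and its interval includes 0.

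The ratios of the members were also compared with each other. Of 45 pairs, 5 differed beyond counting error with intervals widened for 45 comparisons (Bonferroni), and this number rests on the depth estimate, being 0 at 0.5 times and 22 at 2 times that depth. Hdac2 had a higher ratio than Hdac4 (difference 0.40, 0.02 to 0.78), than Hdac5 (0.30, 0.05 to 0.55) and than Hdac6 (0.36, 0.07 to 0.66). Hdac5 minus Hdac7 was -0.29 (-0.56 to -0.02), and Hdac6 minus Hdac7 was -0.35 (-0.67 to -0.04). For the close relatives Hdac4 and Hdac5 the difference was -0.10 (-0.42 to 0.22). Hdac8, in spite of the lowest ratio, was in none of the 5 pairs. Its difference to Hdac3, for instance, ran from -0.16 to 1.07 as Hdac3 minus Hdac8.

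**Figure D3:**
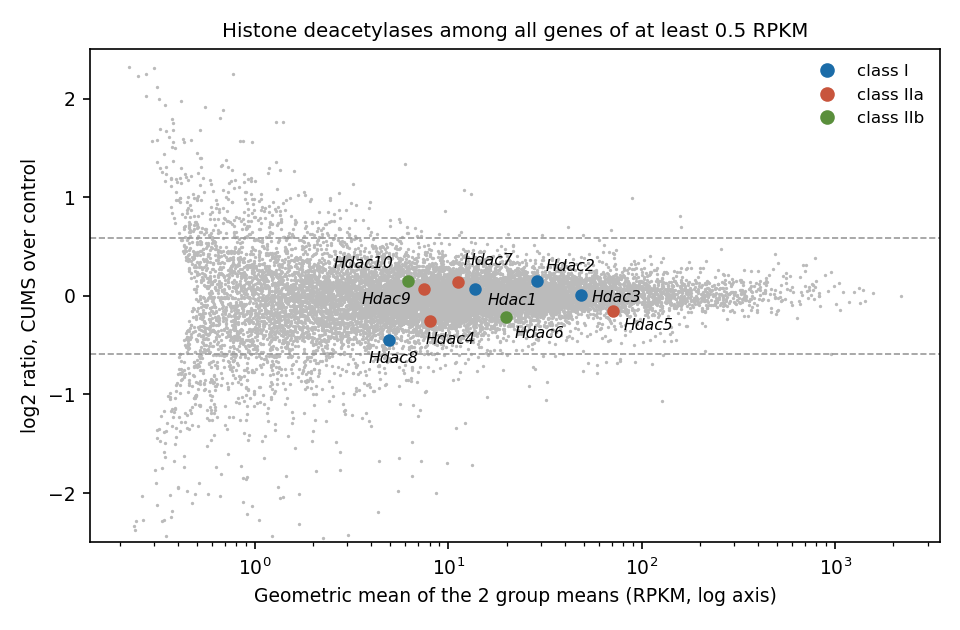
Each gene that reached 0.5 RPKM in either group (gray points) by the geometric mean of the group means (log axis, RPKM) and by its log2 ratio, with the histone deacetylase genes colored by class and 51 genes outside the vertical range not drawn. The 10 members lie within the cloud of genes of like level, between the dashed lines of 1.5-fold.

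Other deacetylases gave values of similar size. Hdac11 (gene 232232, chromosome 6, 91156670 to 91174692), the only class IV enzyme and an efficient remover of fatty acyl groups, was more abundant than any of the 10 members, at 123.625 RPKM in control and 111.16 RPKM in CUMS. Its log2 ratio was -0.15 (-0.21 to -0.09). For Hdac11, 19.4% of the 100-base windows also occur in Gm44002, which overlaps it on the opposite strand. The sirtuins are deacetylases that use NAD and have no sequence likeness to the members. Their median log2 ratio was -0.08. The interval lay below 0 in 1 of 7 and above 0 in 0 of 7, against 16.9% and 12.6% of the 14257 genes. The sirtuin below 0 was Sirt2, a deacetylase abundant in oligodendrocytes, at 93.235 RPKM in control and 84.45 RPKM in CUMS (-0.14, -0.22 to -0.06). The highest and lowest ratios were those of Sirt5 (0.17, -0.20 to 0.53) and Sirt4 (-0.18, -0.45 to 0.09).

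The partners of Hdac1 and Hdac2 were examined as 3 corepressor complexes with 35 genes. Their median log2 ratio was -0.05, 0 of 35 were past 1.5-fold, and the interval lay below 0 in 9 and above 0 in 0 of 35 genes, against 7.2%, 16.9% and 12.6% of the 14257 genes. Among the 7638 genes in the members' range of levels the shares were 1.14%, 18.7% and 14.1%. In the Sin3 complex, 4 of 13 genes had an interval below 0 (Arid4a, Ing1, Sap30l and Suds3), with ratios from Arid4a (4.295 RPKM in control and 3.38 RPKM in CUMS, -0.35, -0.57 to -0.12) to Sin3a, the scaffold (0.07, -0.09 to 0.23). The upper bounds of Ing1 (-0.03), Sap30l (-0.02) and Suds3 (-0.02) were close to 0. In NuRD, which joins deacetylation with nucleosome remodeling, 4 of 12 were below 0 (Gatad2b, Gatad2a, Chd4 and Chd5), among them the remodeler Chd4 (36.41 RPKM in control and 32.185 RPKM in CUMS, -0.18, -0.25 to -0.11). The ratios in NuRD ran from Gatad2b (-0.27, -0.49 to -0.05) to Mta1 (0.04, -0.07 to 0.16). Chd5 (-0.01) and Gatad2a (-0.03) also had upper bounds close to 0. In CoREST, which adds a histone demethylase, 1 of 10 was below 0, the reader protein Phf21a (-0.20, -0.34 to -0.07), and ratios ran from Rest (-0.42, -1.18 to 0.39) to Rcor2 (0.19, -0.07 to 0.45).

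The partners of class IIa enzymes were examined as MEF2 genes, 14-3-3 genes and kinases. Abundant genes have narrow counting intervals, and of the 730 genes with at least 100 RPKM in control 34.4% had an interval above 0 and 24.2% below 0. Over the 14257 genes the shares were 12.6% and 16.9%, and 7.2% were past 1.5-fold. In the members' range of levels the shares were 14.1%, 18.7% and 1.14%. The MEF2 genes and all kinases but Camk2a and Camk2b were under 100 RPKM in control. Of 3 MEF2 genes with at least 0.5 RPKM, 2 had an interval above 0 (Mef2c and Mef2a). For Mef2a (0.17, 0.001 to 0.33) the lower bound is close to 0. Mef2c, a MEF2 gene abundant in cortical excitatory neurons, had a mean of 55.02 RPKM in control and 69.8 RPKM in CUMS (0.34, 0.29 to 0.40). Mef2d had the lowest ratio of the 3 (-0.02), and Mef2b was too low to be tested, at 0.14 and 0.05 RPKM. Of 7 genes of 14-3-3 proteins, 6 had an interval above 0, with the highest ratio in Ywhah (512.505 RPKM in control and 602.175 RPKM in CUMS, 0.23, 0.20 to 0.27). The seventh gene, Sfn, known from epithelia and low here, had a mean of 1.84 RPKM in control and 1.2 RPKM in CUMS (-0.62, -1.33 to 0.11). The medians of both lists (0.17 and 0.14) had the sign of the excitatory neuron markers, whose summed level had a mean of 1401 RPKM in control and 1783 RPKM in CUMS, and the part of this in their values was not tested. Among 13 kinases that phosphorylate class IIa enzymes, 3 had an interval above 0 (Camk2a, Camk2d and Camk1d) and 3 below 0 (Sik1, Prkd3 and Sik3). Sik1, an activity-induced kinase, had a mean of 9.095 RPKM in control and 5.325 RPKM in CUMS (-0.77, -0.96 to -0.58), the single kinase past 1.5-fold. Camk2a, the abundant calcium-dependent kinase of excitatory neurons, had the highest ratio (827.76 RPKM in control and 957.92 RPKM in CUMS, 0.21, 0.20 to 0.23).

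**Figure D4:**
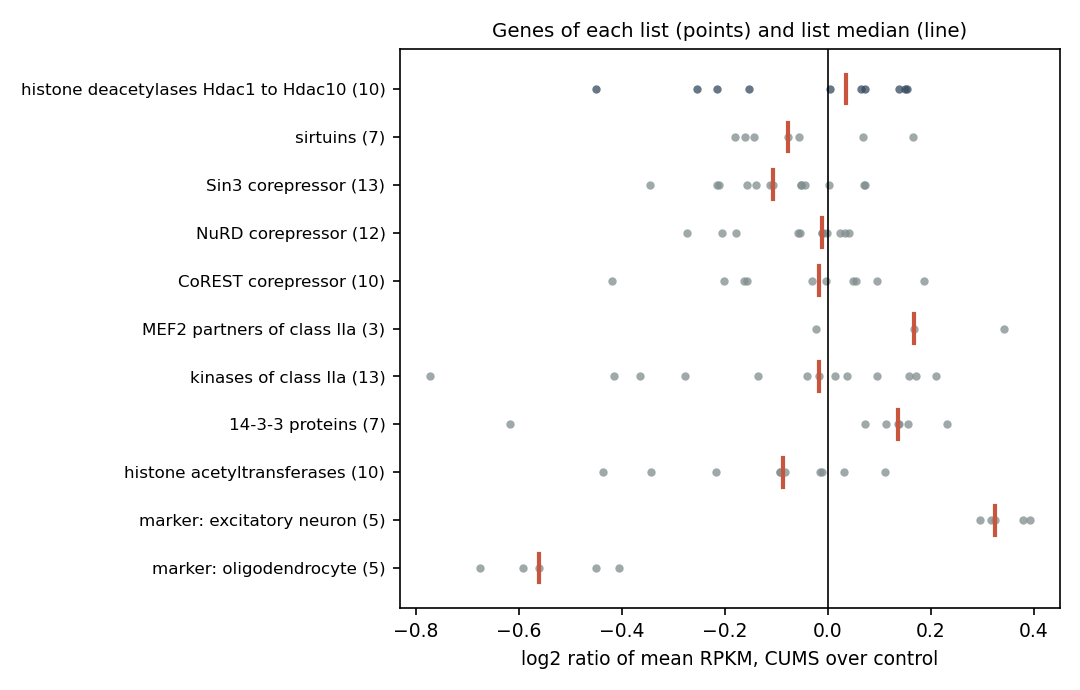
Log2 ratio of CUMS over control for every gene with at least 0.5 RPKM in each list (points, number of genes in parentheses) and the median of the list (vertical line). The histone deacetylase genes spread from -0.45 to 0.15 around a median of 0.03, all to the left of the excitatory neuron markers, and Hdac8 alone reaches into the range of the oligodendrocyte markers (-0.68 to -0.40).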

How the data were processed

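mRNA of mPFC from control mice (2 libraries) and CUMS mice (2 libraries) was sequenced by the authors as paired reads (Illumina HiSeq). Per the labels and the methods of the study, reads were aligned to mm10 with TopHat 1.0.12 and Bowtie 0.11.3, and those with a single alignment were counted per gene. Neither the annotation nor the use of strand is given in the sources used here. The authors deposited RPKM averaged within each group, with 0.01 in place of 0, beside the gene length in bases. The authors' own log2 ratio, direction and NOISeq probability were not used.

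The log2 ratio of the group means was computed here without a pseudocount, for genes that reached 0.5 RPKM in either group, the minimum of the study. Depth was estimated from values of genes shorter than 1000 bases with a product of mean and length under 350. Of 406 control and 392 CUMS values, 87.9% and 87.5% lay within 0.15 of a whole number of the best step, against 36.2% and 36.7% after the lengths had been shuffled. The study lists more clean reads per library than 2 times this depth, and the difference was not resolved. Depths of 0.5 and 2 times the estimate were tried, a range that does not reach the read number of the study. Intervals of a ratio are Clopper-Pearson 95% intervals of estimated fragments, and those of a level are exact Poisson intervals. Those of a difference between genes are Wald intervals widened for 45 comparisons (Bonferroni). Fragments are not corrected for PCR duplicates. Scripts (Python 3.11.15, scipy 1.17.1) were tested on simulated data.

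Gene spans of all members were found by identifier in RefSeq (GRCm38.p6). All members were named, and of each other list of enzymes and partners the genes with the highest and the lowest ratio. Further genes of these lists (such as Sirt2, Chd4, Phf21a, the further genes given in parentheses and the markers) were named after their values had been seen. The members and all lists were chosen with earlier results of these data known. The level of 100 RPKM for abundant genes was also chosen after the values had been seen. The list of another corepressor complex is not reported here.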

Additional observations from a re-analysis of the deposited data

How the results depend on the processing

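No paired analysis was possible because 1 mean stands for each group, and fits that leave out a library were not run for the same reason. In all, 71 values under alternatives were computed, and 67 stayed within the counting interval (for the median log2 ratio of the members, within the medians of their interval bounds) or within 1.5 times the count. Most of them were small shifts of 1 gene's ratio, which its counting interval could hardly fail to hold, so this number says little about robustness. The 4 that moved were the count past 1.2-fold, the count of intervals at 0.5 times the depth and both counts of pairs. That median, 0.03, was 0.07 over the 9 members with at least 5 RPKM in both groups. The scaling shifted every log2 ratio by 0.015 (median of 0) or -0.0076 (equal sum). The number of members past 1.5-fold was 0 and became 1 with a threshold of 1.2. The number of members with an interval away from equal expression was 5. It became 2 at 0.5 times the depth (Hdac5 and Hdac6) and was 6 at 2 times the depth and after rescaling to a median of 0, with Hdac7 added each time. The number of pairs apart, 5, became 0 at 0.5 times and 22 at 2 times the depth. The alternatives for pairs were chosen after seeing the data. The intervals of Hdac2, Hdac4 and Hdac8 thus depend on the estimated depth. For genes outside the members, intervals at other depths were not computed.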

Other observations

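The genes of histone acetyltransferases, which act against the deacetylases, had a median log2 ratio of -0.09, and the interval lay below 0 in 3 of 10 genes and above 0 in 0 of 10, against 16.9% and 12.6% of the 14257 genes that reached 0.5 RPKM. These 3 were Kat2b (4.615 RPKM in control and 3.41 RPKM in CUMS, a log2 ratio of -0.44, -0.68 to -0.18), Crebbp (8.055 and 6.35 RPKM, -0.34, -0.49 to -0.20) and Ep300 (8.165 and 7.025 RPKM, -0.22, -0.35 to -0.09). Crebbp and Ep300 encode the closely related coactivators CBP and p300, and Kat2b encodes PCAF, which binds to them. The highest ratio was that of Kat8 (11.585 and 12.515 RPKM, 0.11, -0.13 to 0.36), and 0 of 10 genes were past 1.5-fold. Crebbp and Ep300 were named after their values had been seen.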
